A study of Saccharomyces cerevisiae with 12 samples.

Results

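The comparison described here set evolved ulp2Δ line 9 against WT budding yeast, Saccharomyces cerevisiae, by RNA-seq of total RNA. Its members were all named genes of the deposited gene count table with enough counts in the 12 libraries of the study, with 6 unnamed assembled loci left out. Of 7108 named genes, 6372 were tested. WT was strain MHY1379, which lacks the chromosomal ULP2 gene and carried ULP2 on the URA3-marked plasmid YCplac33. Line 9 is a ulp2Δ derivative of MHY1379 from which that plasmid had been evicted and which had then been passaged for 500 generations. In the study's scheme evicted cells received either the empty URA3 vector YCplac33 or the same vector with ULP2 again, and the sources used here do not say whether the line 9 cells sampled still held a URA3 vector. Nascent ulp2Δ cells of low passage and a second evolved line of the same age, line 6, were measured beside them and are used here only to show where line 9 differs. Each group had 3 libraries, RNA came from cells growing exponentially in the glucose-based rich medium YPD, and all groups carry the chromosomal ulp2 deletion. Line 9 is 1 evolved line, and the labels do not give its other mutations. The paper reports a Uba2 mutation shared by both evolved lines it profiled, and a further Uba2 mutation that they do not share. By its genome sequencing, no other protein was altered in them. Line 9 thus carries a mutated Uba2 besides the ulp2 deletion, and the labels do not say which genotype it has. The part of Uba2 in the changes below was not tested. The labels also do not say that the 3 libraries came from separate cultures. The p-values below therefore measure only the spread between these libraries, which may be technical.

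SUMO, in yeast the protein Smt3, is a small ubiquitin-like protein that is joined to lysines of other proteins by the E1 enzyme Aos1-Uba2, the E2 enzyme Ubc9 and E3 ligases such as Siz1. Ulp2 is a nuclear protease that trims chains of SUMO, and Ulp1, at the nuclear pore, matures the SUMO precursor and removes SUMO from substrates. Loss of Ulp2 lets polymeric SUMO conjugates build up and gives slow growth, sensitivity to DNA damage and chromosome instability, and long passaging of such cells selects faster-growing derivatives.

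The labels were checked first with ULP2, which differs by construction, and URA3, the marker of its plasmid. Counts of ULP2 (YIL031W) were 8699, 8519 and 10694 for WT against 8, 4 and 20 for line 9. URA3 (YEL021W), the orotidine phosphate decarboxylase gene that also marks the plasmid, fell from 2145 ± 30.6 to 78.6 ± 8.25 CPM, the count per 1000000 counts of the TMM-scaled library (here and below mean ± SD, n = 3). No source used here gives a difference in TRP1 between these strains, but TRP1 had 2104 counts over the 3 WT libraries and 2 over those of line 9, a ratio of 1186 with an exact 95% interval of 327.9 to 9798 that covers counting error only, and YDR008C, which lies with it, had 390 and 0 counts and was at least 146.5-fold lower against a floor of 3 counts over the group. Among other auxotrophic marker genes, HIS3 (log2 fold change 0.04, adjusted p = 0.63) and ADE2 (0.05, adjusted p = 0.177) did not pass the test, LEU2 fell by 0.76 and LYS2 rose by 0.52. WT libraries held between 22238141 and 26280989 counts for named genes and those of line 9 between 23087468 and 30719553, and no pair of libraries of either group agreed within counting noise.

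By edgeR's quasi-likelihood test, 111 genes (1.74% of those tested) were at least 2-fold higher in line 9 than in WT at an adjusted p below 0.05, and 315 genes (4.94%) were at least 2-fold lower. In either direction, 6.69% of the genes were called. Without a fold threshold, 2073 genes (32.5%) were higher and 2163 (33.9%) lower, and the median log2 fold change over all tested genes was -0.01. In 411 of the genes called at 2-fold (6.45% of those tested) no library of line 9 overlapped a library of WT, while 4399 genes (69.0%) had non-overlapping libraries irrespective of the call. The 12 largest rises with at least 50 counts and no overlap included the pyrimidine genes URA1, FUI1 and URA2, the paralogs YNL018C and YNL034W, the splicing factor gene SNT309 and the peptide transporter gene PTR2. The 12 largest falls by the same rule, apart from the marker genes, included the pheromone gene MF(ALPHA)1 and the G1 genes TOS6, PCL1, TOS4 and CLB6. YMR141C (log2 fold change -7.25) and YBL005W-A (-6.99) fell more than any of these, and YGR151C (-2.77) and LOH1 (-2.57) were also among the 12. The libraries of YMR141C, YBL005W-A and YGR151C differed many-fold within a group. Of the genes called, 46 of the 111 that rose and 40 of the 315 that fell have no position in the annotation used. Their overlap with other genes was therefore not checked. Only 433 tested genes lack a position, so they were called more often in each direction than the 1.74% and 4.94% of all genes. The count of rises thus rests in large part on features that were not matched to the annotation. Set against line 6 in the same fit, 150 genes (2.35%) were at least 2-fold higher in line 9 and 132 (2.07%) at least 2-fold lower.

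**Figure D1:**
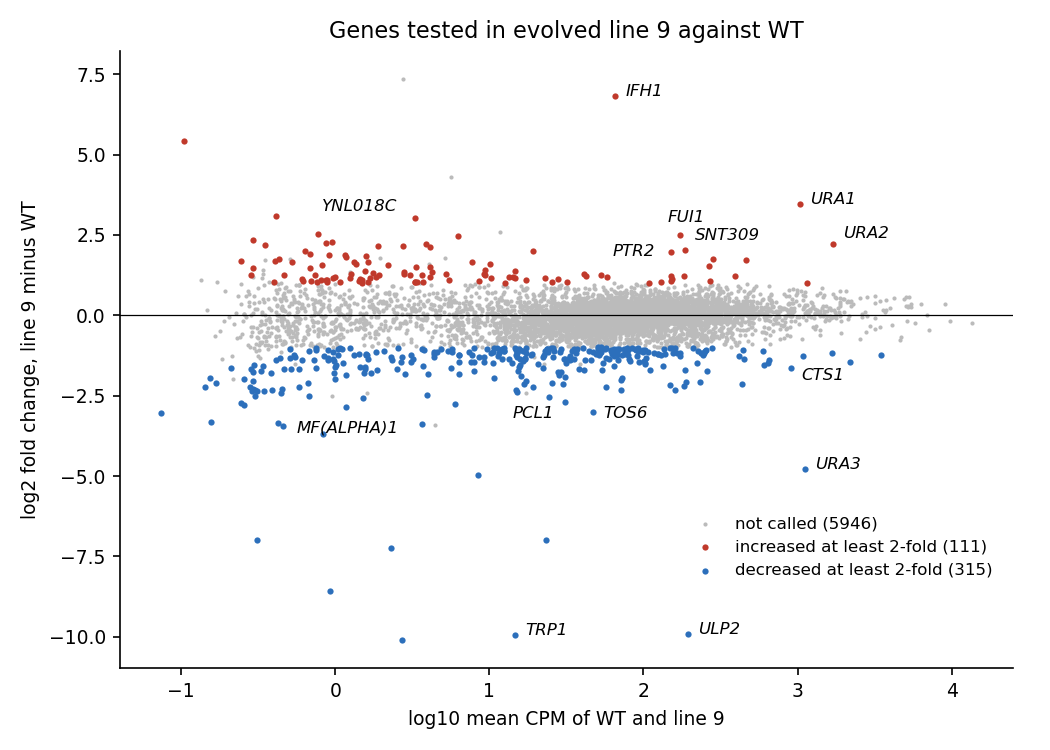
Each point is 1 of 6372 tested genes, with the log10 of its mean CPM in WT and line 9 on the x axis and the log2 fold change of line 9 against WT on the y axis; coloured points are the 111 genes called increased and the 315 called decreased. The pyrimidine gene URA1 stands 3.45 above 0, while G1 genes such as PCL1 lie below -2.

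Pyrimidine nucleotides are made from glutamine and aspartate through orotate to UMP. In this yeast the activator Ppr1 responds to pathway intermediates and raises transcription of several of the genes, and Fui1 and Fur4 carry uridine and uracil into the cell. The promoter stretches below are those of the pathway genes URA1, URA4 and FUI1, which rose at least 2-fold and held a match of the Ppr1 motif, and of URA3, which held one and fell. The Ppr1 motif was searched as CGGNNNNNNCCG, which reads the same on both strands, and its fixed letters are in capitals; each stretch is written 5′ to 3′ on the gene's strand from the R64 assembly (RefSeq), of the same build as the sacCer3 genome to which the reads were mapped.
URA1, chrXI:24973-25075, plus strand: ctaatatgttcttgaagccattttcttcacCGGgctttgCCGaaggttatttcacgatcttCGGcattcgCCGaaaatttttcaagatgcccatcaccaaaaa
URA4, chrXII:963625-963684, plus strand: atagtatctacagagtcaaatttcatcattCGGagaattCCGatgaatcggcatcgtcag
FUI1, chrII:140570-140641, minus strand: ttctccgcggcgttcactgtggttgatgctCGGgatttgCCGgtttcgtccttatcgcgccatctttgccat
URA3, chrV:115985-116056, plus strand: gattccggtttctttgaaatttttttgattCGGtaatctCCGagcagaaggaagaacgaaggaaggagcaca
In the window from 250 bases before to 50 bases after the start codon, the motif was present in 4 of 24 pyrimidine genes (16.7%), in 5.08% of the 59 genes that rose at least 2-fold and had a promoter to search (of 111) and in 1.27% of all 5822 promoters searched. The 4 were URA1, which held it at a pair of places, URA4, URA3 and the cytosine deaminase gene FCY1, whose log2 fold change was -0.11. The site of FUI1 lies outside that window, in the longer window of 500 bases, where 20.8% of the pyrimidine genes and 2.78% of all promoters had a match. URA2 had no match in either window. A match describes the letters only.

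URA1 (YKL216W, chromosome XI, 25215 to 26159), encoding dihydroorotate dehydrogenase, had 4092, 3890 and 4553 counts in WT and 42938, 56394 and 55178 in line 9. Every line 9 library was above every WT library. Its level rose from 174 ± 2.95 to 1899.9 ± 31.2 CPM, a log2 fold change of 3.45 (SE 0.04, adjusted p = 8.7e-18). URA2 (YJL130C, chromosome X, 165723 to 172367), whose product carries out the opening steps of the pathway, rose from 603 ± 7.03 to 2791 ± 45.5 CPM (log2 fold change 2.21, SE 0.04, adjusted p = 2.26e-15). FUI1 (YBL042C, chromosome II, 138341 to 140260), the uridine permease, had 1296, 1189 and 1255 counts in WT and 6444, 8916 and 8690 in line 9 (log2 fold change 2.502, SE 0.06, adjusted p = 4.47e-14). The groups did not overlap in either gene. URA4 (YLR420W, chromosome XII, 963785 to 964879), encoding dihydroorotase, rose from 110 ± 4.58 to 257 ± 5.72 CPM, by 1.23 on the log2 scale. FCY22, a member of the purine-cytosine permease family, rose by 1.20 to 5.75 ± 0.979 CPM, still a low level.

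Other genes of the pathway moved in both directions. Of 24 tested genes of pyrimidine synthesis and uptake, 5 were increased and 4 decreased at least 2-fold, and 9 were higher and 13 lower by adjusted p alone, against 32.5% and 33.9% of all genes. The orotate phosphoribosyltransferase genes URA5 and URA10 fell by 0.38 and 0.66 (adjusted p = 5.8e-07 and 2.35e-09). URA3 itself fell by 4.77 on the log2 scale, and the CTP synthase genes moved in opposite directions, with URA7 lower by 1.75 and URA8 higher by 0.61. Among salvage and transport genes, FUR1, the uracil phosphoribosyltransferase, fell by 1.04, the dCMP deaminase gene DCD1 fell by 1.29, and the uracil permease gene FUR4 rose by 0.23. PPR1 had 605, 493 and 646 counts in WT and 458, 650 and 597 in line 9, with a log2 fold change of -0.21 (adjusted p = 0.0177) that did not pass the test without WT replicate 1 (-0.16, adjusted p = 0.0789). The level of URA3 moves with ULP2 in this comparison, and their parts in the pyrimidine genes cannot be told apart.

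The other ulp2Δ groups share the WT libraries, so their values are given side by side. URA1 stood 4.06 above WT in line 6 and 2.46 above it in nascent ulp2Δ cells, and in line 9 it was lower than in line 6 by 0.61 (adjusted p = 4.7e-10, direct contrast in the same fit). URA2 and FUI1 did not differ from line 6 by that test (log2 differences -0.05 and 0.08, adjusted p = 0.231 and 0.185). FUR4 had opposite signs in the 2 lines, at -0.86 against WT in line 6 and 1.09 higher in line 9 than in line 6 (adjusted p = 1.39e-09). URA3 was 4.11 and 4.01 below WT in line 6 and in nascent cells.

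**Figure D2:**
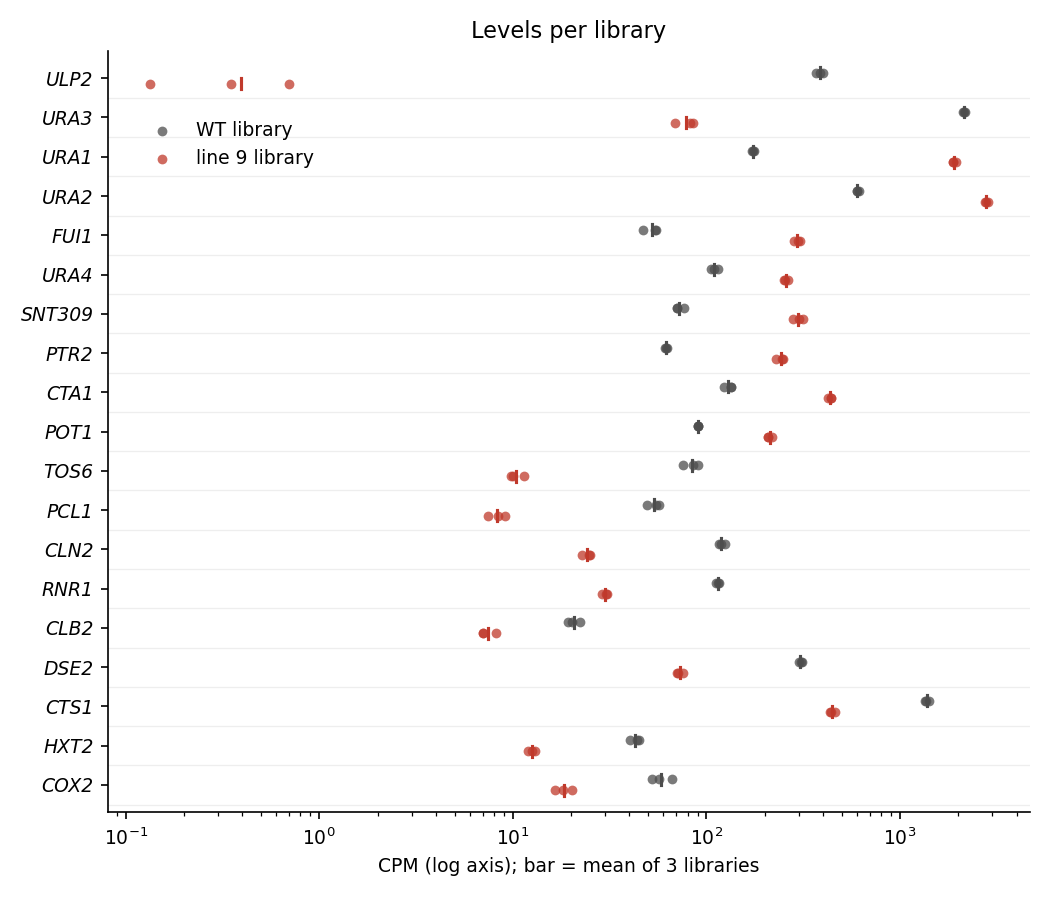
CPM of 19 genes on a log axis, with 1 point for each WT and each line 9 library and a bar at the mean of the 3. URA1 lies at 174 ± 2.95 CPM in WT and 1899.9 ± 31.2 CPM in line 9, and no WT and line 9 library overlap in it.

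The second broad group was the transcripts of the cell cycle. In late G1 the factors SBF (Swi4-Swi6) and MBF (Mbp1-Swi6) bind promoter elements called SCB and MCB and turn on G1 cyclins, DNA synthesis genes and bud growth genes. A list of 37 such genes, written after the values had been seen, had 18 members decreased at least 2-fold and none increased, against 4.94% and 1.74% of all genes, and 33 members lower by adjusted p alone. Its median log2 fold change was -1.002, beside -0.01 over all genes tested. The summed level of the 37 genes was 3370, 3322 and 3324 CPM in WT and 1698, 1719 and 1691 CPM in line 9, so the groups lay well apart. In bulk RNA, fewer cells in a phase of the cycle and less RNA per cell cannot be told apart.

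Promoter stretches of 4 of these genes are shown because the genes fell at least 2-fold and carry the SBF or MBF elements. MCB was searched as ACGCGT and SCB as CGCGAAA, on both strands, with matches in capitals; an SCB and an MCB may share a base, as they do in POL30.
PCL1, chrXIV:87564-87639, plus strand: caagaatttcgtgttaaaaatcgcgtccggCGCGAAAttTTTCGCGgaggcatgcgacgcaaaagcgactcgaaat
CLB6, chrVII:706843-706934, minus strand: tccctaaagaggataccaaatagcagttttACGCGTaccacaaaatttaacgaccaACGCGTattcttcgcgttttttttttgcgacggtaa
RNR1, chrV:298450-298679, plus strand: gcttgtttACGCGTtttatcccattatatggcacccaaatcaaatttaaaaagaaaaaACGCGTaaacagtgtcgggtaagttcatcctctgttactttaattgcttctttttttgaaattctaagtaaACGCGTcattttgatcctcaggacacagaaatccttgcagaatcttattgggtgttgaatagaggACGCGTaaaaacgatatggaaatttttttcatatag
POL30, chrII:425926-425997, minus strand: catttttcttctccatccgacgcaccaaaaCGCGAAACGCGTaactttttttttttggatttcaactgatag
Over the 500 bases before the start codon, a window chosen after the values had been seen, 59.5% of the G1/S genes held an MCB and 40.5% an SCB, against 5.53% and 5.87% of all promoters. In the shorter window used for Ppr1 the shares were lower, 35.1% and 13.5% against 3.11% and 3.59%. CLN1, CLN2, SVS1 and NRM1, which fell at least 2-fold, held no match of either element in either window. Among all genes that fell at least 2-fold the shares were 7.36% and 13.2%. The list was made of genes known for this control, so its shares describe the list and test nothing.

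PCL1 (YNL289W, chromosome XIV, 87897 to 88736), a G1 cyclin that works with the kinase Pho85, had 1283, 1246 and 1308 counts in WT and 209, 252 and 211 in line 9. CLN2 (YPL256C, chromosome XVI, 64977 to 66614), a G1 cyclin of the kinase Cdc28, had 2730, 2728 and 3155 counts in WT and 570, 682 and 701 in line 9. Both were lower in every line 9 library than in any WT library, with log2 fold changes of -2.68 (SE 0.10, adjusted p = 1.1e-11) and -2.31 (SE 0.06, adjusted p = 1.71e-13). The CLN2 paralog CLN1 fell by 2.23 and the S-phase cyclin gene CLB6 by 2.49 (SE 0.24), from 6.71 ± 0.583 to 1.18 ± 0.132 CPM. TOS6, which encodes a cell wall protein, fell the most of the list, from 83.8 ± 7.67 to 10.4 ± 0.865 CPM. Among DNA synthesis genes, RNR1 (YER070W, chromosome V, 298950 to 301616), the large subunit of ribonucleotide reductase, had 2640, 2565 and 3068 counts in WT and 662, 914 and 859 in line 9, and its log2 fold change was -1.94 (SE 0.06, adjusted p = 5.68e-13). POL30 (YBR088C, chromosome II, 424990 to 425766), the sliding clamp PCNA, fell by 1.69, the cohesin subunit gene MCD1 by 1.91, and CDC21, thymidylate synthase, by 0.83. YOX1 and NRM1, which encode transcriptional repressors, fell by 2.25 and 1.97.

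Not every gene of the list fell. SWI4, the DNA-binding subunit of SBF, had 1257, 1136 and 1528 counts in WT and 1350, 1676 and 1562 in line 9, with overlapping groups on the CPM scale (log2 fold change 0.06, adjusted p = 0.287). The B-type cyclin gene CLB5, beside CLB6 in function, fell by 0.23. The cohesin gene SMC3 (-0.10) and the replication gene CDC9 (-0.08) did not pass the test. The polarity gene AXL2 had 2051, 87 and 2191 counts in WT and 121, 1550 and 79 in line 9, so that 1 library of each group stood with the other group (log2 fold change -1.51, adjusted p = 0.234). Of 20 cyclins and G1 regulators, 7 were decreased and none increased at least 2-fold, against 4.94% and 1.74% of all genes. CLN3, WHI5, SIC1 and CLB3 had log2 fold changes between -0.29 and -0.16, while SWI6 and MBP1 rose by 0.25 and 0.18.

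Genes of G2 and mitosis were lower as well. They are turned on by Mcm1 with Fkh2 and Ndd1 and include the mitotic cyclins, activators of anaphase and the daughter-specific factors. Of 25 such genes, on a list also written after the values had been seen, 12 were decreased and none increased at least 2-fold, 22 were lower and 2 higher by adjusted p alone, and the median log2 fold change was -0.93. Among all genes 4.94% were decreased at 2-fold, and 33.9% were lower and 32.5% higher. SWI5 (YDR146C, chromosome IV, 748613 to 750742), a transcription factor of late mitosis, had 2581, 2462 and 3166 counts in WT and 634, 795 and 875 in line 9, with no overlap, and fell by 2.00 (SE 0.06, adjusted p = 1.84e-12). The mitotic cyclin genes CLB1 and CLB2 fell by 2.11 and 1.47, CDC20, the activator of the anaphase-promoting complex, by 1.35, and TEM1, the GTPase of mitotic exit, by 1.69. ASE1, a spindle midzone protein, and CYK3, of cytokinesis, rose by 0.42 and 0.22. In the list of 19 genes of the M to G1 transition, also written after the values had been seen, 2 were decreased at least 2-fold, 3 were higher and 11 lower by adjusted p, and the median was -0.16. All 11 histone genes tested were lower, from -0.14 for HTZ1 to -1.53 for HTB2, and the 2 that fell at least 2-fold were HTB2 and HTA2; the HTZ1 value did not pass with DESeq2 (adjusted p = 0.0747).

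The G1/S list stood higher in line 9 than in line 6. Its median log2 difference was 0.42, with 28 of 37 genes higher than in line 6 and 2 lower by adjusted p, beside 29.4% and 28.2% of all genes. Named genes lay further below WT in line 6: PCL1 was at -3.35 against WT in line 6, RNR1 at -2.58 and POL30 at -2.42. CLN2 did not differ between the lines (log2 difference 0.02, adjusted p = 0.806). In the G2/M list 8 genes were higher and 8 lower than in line 6, and the median difference was 0.04.

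**Figure D3:**
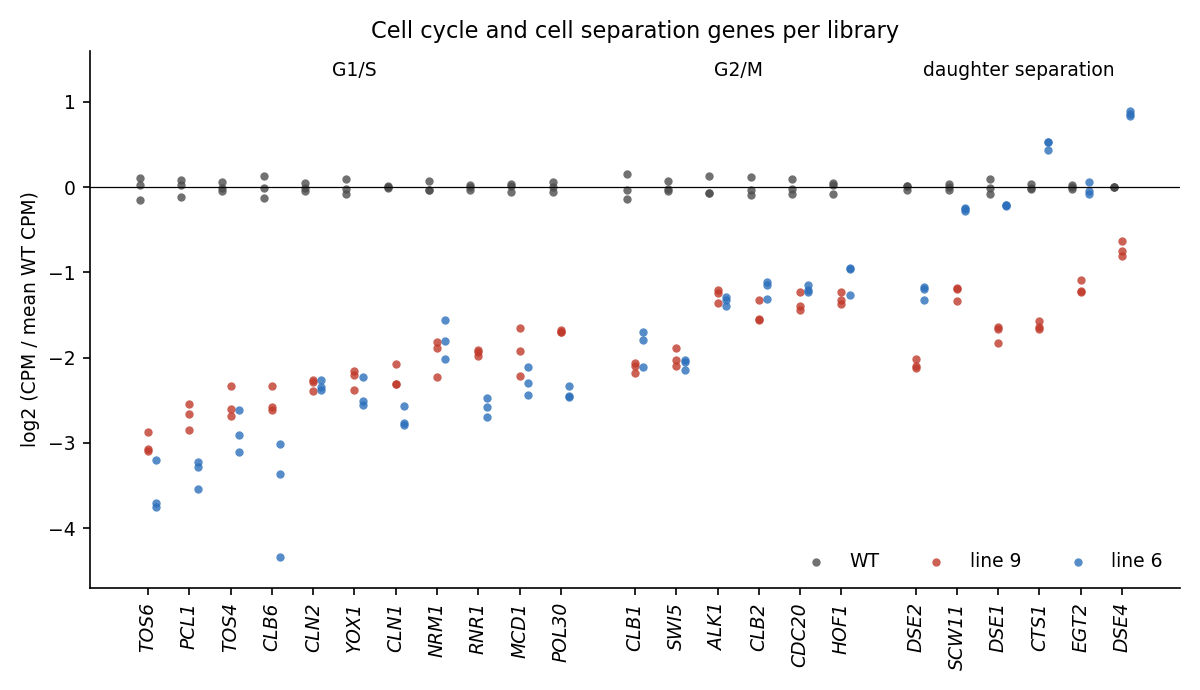
CPM of 23 cell cycle and separation genes in each WT, line 9 and line 6 library, as the log2 of the ratio to the WT mean, with 1 point per library. The line 9 points lie below the WT points in every gene shown, and CTS1 stands at -1.62 in line 9 and 0.50 in line 6.

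Genes of daughter-cell separation set line 9 apart from line 6. After cytokinesis a chitinase and glucanases made by the daughter cell digest the septum between mother and daughter. Of 16 such genes tested, 8 were decreased and none increased at least 2-fold in line 9 against WT, 14 were lower and 2 higher by adjusted p, and the median log2 fold change was -1.06. Over all genes 4.94% were decreased at 2-fold and 33.9% were lower. The summed level was 3707, 3760 and 3665 CPM in WT and 1844, 1809 and 1829 CPM in line 9, again with no overlap. Against line 6, 12 genes were lower and 2 higher, beside 28.2% and 29.4% of all genes, with a median log2 difference of -0.97.

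CTS1 (YLR286C, chromosome XII, 708448 to 710136), the endochitinase of the septum, had 31755, 30844 and 36230 counts in WT and 9906, 13135 and 13176 in line 9. It fell from 1371.9 ± 27.8 to 444.9 ± 15.2 CPM, by 1.62 on the log2 scale (SE 0.04, adjusted p = 1.18e-13). In line 6 it stood 0.50 above WT and in nascent cells 0.30 above it, and the difference of line 9 from line 6 was -2.12 (adjusted p = 2.18e-14). DSE1 (YER124C, chromosome V, 407342 to 409063), a daughter-specific gene, fell by 1.71 in line 9 and was at -0.21 in line 6. EGT2, a protein of the end of cytokinesis, fell by 1.18 in line 9 and was at -0.02 in line 6, and the glucanase family gene SCW11 fell by 1.24 and was at -0.26. DSE4, an endoglucanase, and DSE3 fell by 0.73 and 0.69 in line 9 but stood 0.86 and 0.90 above WT in line 6. DSE2 fell in both lines, from 306 ± 5.39 to 72.6 ± 2.81 CPM in line 9 (log2 fold change -2.08, SE 0.05) and by 1.23 in line 6. AMN1, an inhibitor of mitotic exit in daughters, and NIS1 were 1.29 and 1.28 lower than in line 6 although their changes against WT were -0.11 and 0.37. ASH1, whose product prevents mating type switching in daughters, was at 0.11 against WT and 0.23 above line 6.

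The cell wall moved in both directions. Of 26 cell wall genes, 6 were decreased and none increased at least 2-fold, 12 were higher and 10 lower by adjusted p, and the median was 0.06. The shares over all genes were 4.94% and 1.74% at 2-fold, and 32.5% and 33.9% by adjusted p. CIS3 (YJL158C, chromosome X, 122265 to 122948), a wall protein of the PIR family, had 17576, 16105 and 17323 counts in WT and 3476, 5177 and 4564 in line 9, without overlap (log2 fold change -2.13, SE 0.06, adjusted p = 6.41e-13). GAS1, a glucanosyltransferase that builds the glucan network, fell by 1.53, and the mannoprotein gene CWP2 by 1.47, from 3192 ± 479 to 1154 ± 93.7 CPM. Rises, all below 2-fold, were seen in CHS1, the repair chitin synthase (0.94), GSC2, a stress-induced glucan synthase (0.78), PST1 (0.69), SLT2, the kinase of the wall integrity pathway (0.58), and its target factor RLM1 (0.34). PST1 was at -0.42 in line 6 and was 1.10 higher in line 9 than in line 6 (adjusted p = 4.86e-12).

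Genes of chromosome XIII were lower as a group. Of 476 tested genes there, 352 had a log2 fold change below 0, or 73.9%, against 48.8% on the other nuclear chromosomes, and the median was -0.23. By adjusted p, 281 were lower and 68 higher, and at 2-fold 35 were decreased and 1 increased, so that 7.56% of the chromosome was called, beside 6.69% of all tested genes and 11.2%, 7.94% and 7.35% on chromosomes I, VIII and XII. Taken in both directions together, the share called thus lies near that of all genes. The share of all genes also counts 433 genes without a position, of which 46 were increased and 40 decreased at 2-fold. Among genes placed on nuclear chromosomes, 10.3% of those within 30 kb of an end and 5.24% of those farther away were called. Split by direction, 4.94% of all tested genes were decreased and 1.74% increased at 2-fold. By adjusted p, 33.9% of all tested genes were lower and 32.5% higher. On chromosome XIII the calls as well as the median leaned to falls. Genes not called at 2-fold had a median of -0.20. On the scale of log2(CPM + 1) minus the WT mean, over genes above 10 CPM in WT, the chromosome's median lay between -0.233 and -0.226 in the 3 line 9 libraries and between -0.24 and -0.21 in those of line 6. It lay between -0.002 and 0.006 in the WT libraries and between 0.02 and 0.04 in those of nascent ulp2Δ. The medians of the other nuclear chromosomes in line 9 libraries ranged from -0.05 to 0.08, so chromosome XIII stood outside them in all 3. Along the chromosome, all 11 windows of 80 kb with at least 20 genes had medians below 0, from -0.33 to -0.09. The median of the direct contrast between the 2 evolved lines was 0.005 over the same genes.

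Nascent cells differ from WT on other chromosomes. With chromosomes I and XII left out, where they stand far above WT, the medians of their other chromosomes were between -0.21 and -0.06. Named genes of chromosome XIII with falls well past the chromosome's median include CLN1, YOX1, TEM1, GAS1, the hexose transporter gene HXT2, ILV2 of valine and isoleucine synthesis, and GUA1, GMP synthase (-1.17). DNA copy number was not measured in these libraries and its part in the shift was not tested.

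**Figure D4:**
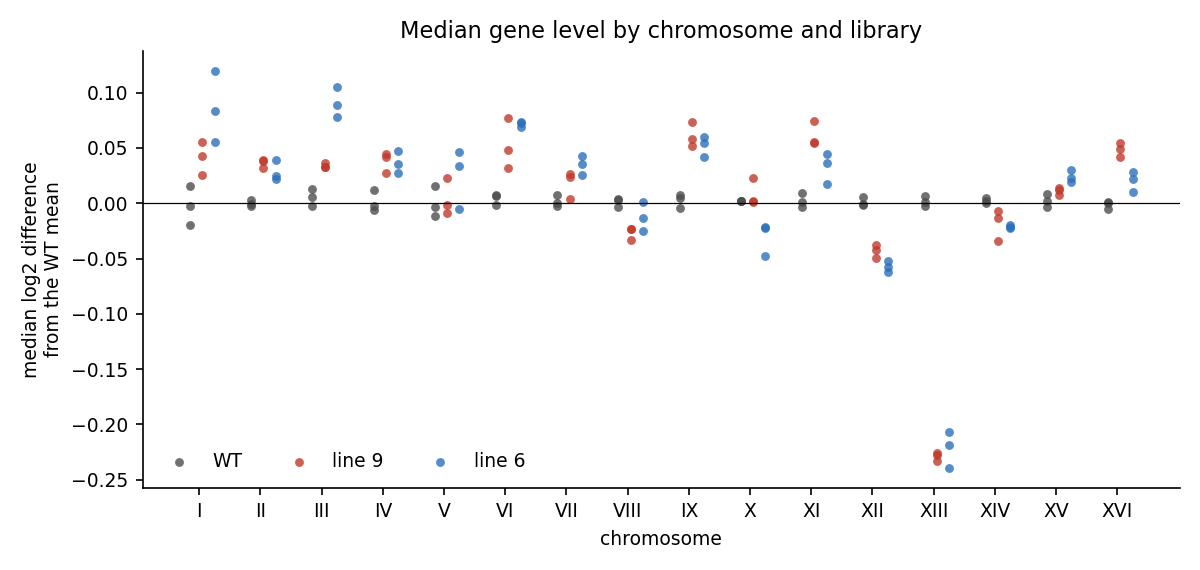
Median of log2(CPM + 1) minus the WT mean over the genes of each nuclear chromosome above 10 CPM in WT, with 1 point for each WT, line 9 and line 6 library. Chromosome XIII lies between -0.233 and -0.226 in the line 9 libraries, and the other chromosomes between -0.05 and 0.08.

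Transcripts of the mitochondrial genome fell while nuclear genes of respiration did not. The mitochondrial genome encodes core subunits of the respiratory complexes and of ATP synthase, and the ribosomal RNAs of the organelle; the nucleus encodes the rest. Of 46 listed mitochondrial features, 17 had enough counts, of which 13 were decreased at least 2-fold and all 17 were lower by adjusted p, with a median of -1.19. Their summed level was 4066, 3821 and 4695 CPM in WT and 1832, 1797 and 2192 CPM in line 9. Among all tested genes 4.94% were decreased at 2-fold and 33.9% were lower by adjusted p. COX2 (Q0250), a subunit of cytochrome c oxidase, had 1231, 1244 and 1765 counts in WT and 415, 495 and 576 in line 9 (log2 fold change -1.68, SE 0.09, adjusted p = 6.62e-10). OLI1, of the ATP synthase ring, fell from 146 ± 6.32 to 54.9 ± 11.4 CPM, COB, cytochrome b, by 1.37, and the large ribosomal RNA, 21S_RRNA, from 2324 ± 244 to 1021.7 ± 124 CPM. The smallest fall was that of AI2 (-0.45), an intron reading frame that overlaps COX1, and counts of overlapping features cannot be separated. Ribosomal RNA features held 0.4381% to 0.6126% of named-gene counts in WT libraries and 0.3028% to 0.3853% in those of line 9. The paper does not say whether ribosomal RNA was removed or messenger RNA selected. The part of such a step in the mitochondrial values was not tested.

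In contrast, 17 of 23 nuclear respiratory chain genes were higher and 1 lower by adjusted p, with none at 2-fold and a median of 0.14. For the nuclear ATP synthase genes the count was 9 higher and none lower of 15, and for the nuclear genes of the mitochondrial ribosome 36 higher and 4 lower of 73. The shares over all tested genes were 32.5% higher and 33.9% lower. The mitochondrial transcripts did not stand apart from line 6, against which 4 were higher and 4 lower, beside 29.4% and 28.2% of all genes.

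Peroxisomal fatty acid oxidation, which yeast uses on oleate and represses on glucose, rose, and less than in line 6. Of 18 genes, 4 were increased at least 2-fold and 16 were higher by adjusted p, with no gene lower and a median of 0.44. For all genes the shares were 1.74% and 32.5%. CTA1 (YDR256C, chromosome IV, 968133 to 969680), peroxisomal catalase, had 2887, 2931 and 3547 counts in WT and 9670, 13159 and 12517 in line 9, without overlap, and rose by 1.74 (SE 0.04, adjusted p = 1.15e-13). POT1, the thiolase, rose by 1.23, POX1, acyl-CoA oxidase, by 1.19, and YAT2, a carnitine acetyltransferase, by 1.01, while PEX11, a peroxisome division factor, did not pass the test (0.05). In line 6 POT1 and YAT2 stood 2.84 and 2.37 above WT, and line 9 was lower than line 6 by 1.61 and 1.35 (adjusted p = 1e-13 and 1.58e-12). Of the 18 genes, 14 were lower than in line 6 and 1 was higher, beside 28.2% and 29.4% of all genes. All 15 genes of the glyoxylate cycle and gluconeogenesis were higher than in WT, with a median of 0.52, and 1 passed 2-fold, the regulator SIP4 (1.53). CIT2, the peroxisomal citrate synthase, rose by 0.55 and was 0.63 lower than in line 6.

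Hexose transporter genes moved in both directions. HXT2 (YMR011W, chromosome XIII, 288079 to 289704), a high-affinity glucose carrier, had 1034, 983 and 1069 counts in WT and 275, 374 and 373 in line 9 and fell by 1.77 (SE 0.07, adjusted p = 1.18e-11), and the low-affinity carrier gene HXT1 fell by 1.47. HXT2 was at -0.55 in line 6 and at 1.47 in nascent cells. HXT6 and HXT7, which are near-identical and whose reads may be shared between them, rose by 0.62 and 0.27 and were 1.12 and 1.31 lower than in line 6. Over 21 genes of hexose transport and sensing, 6 were decreased at least 2-fold, and 14 were lower and 1 higher than in line 6, with a median difference of -0.65. Among all genes 4.94% were decreased at 2-fold, and 28.2% were lower and 29.4% higher than in line 6. SUC2, the secreted invertase, fell by 0.77 and was 1.05 above WT in line 6.

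Nitrogen scavenging genes were higher in more cases than lower. These genes are held down on good nitrogen sources and include permeases and enzymes for proline, allantoin and urea. Of 21, 13 were higher and 4 lower by adjusted p, against 32.5% and 33.9% of all genes, with a median of 0.31. At 2-fold 1 gene was called in each direction, which is near the share of all genes. Against line 6, 12 were higher and 3 lower, beside 29.4% and 28.2% of all genes. DUR12, urea amidolyase, had 2288, 2047 and 2658 counts in WT and 4718, 6127 and 6282 in line 9 and rose by 1.12. PUT1 and PUT4 of proline use rose by 0.97 and 0.89. The general amino acid permease gene GAP1 rose by 0.65 in line 9, stood at -0.60 in line 6, and was higher in line 9 by 1.250 in the direct contrast (adjusted p = 4.76e-12). DAL1, DAL80 and DAL4 of the allantoin group fell by 1.40, 0.90 and 0.70. PTR2 (YKR093W, chromosome XI, 615730 to 617535), the di- and tripeptide carrier, rose from 61.8 ± 0.788 to 241 ± 10.6 CPM (log2 fold change 1.97, SE 0.04, adjusted p = 1.56e-14).

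Genes of sulfur and branched-chain amino acid synthesis were lower in most cases, and other branches moved both ways. Of 31 sulfur amino acid genes, 23 were lower and 1 higher by adjusted p, 4 were decreased at least 2-fold, and the median was -0.49. For all genes the shares were 33.9% lower, 32.5% higher and 4.94% decreased at 2-fold. MET17 (YLR303W, chromosome XII, 732542 to 733876), the sulfhydrylase that makes homocysteine, had 6710, 6273 and 7409 counts in WT and 1922, 2640 and 2510 in line 9, without overlap, and fell by 1.70 (SE 0.03, adjusted p = 5.99e-15); it overlaps the feature YLR302C. HOM3, aspartate kinase, fell by 1.41, CYS3, cystathionine lyase, by 1.21, and SAM1, S-adenosylmethionine synthetase, by 1.01. MET17 was 0.95 lower than in line 6 (adjusted p = 2.45e-12). In the list, 18 of the 31 genes were lower and 2 higher than in that line, beside 28.2% and 29.4% of all genes. In the branched-chain pathway 8 of 12 genes were lower and 2 higher by adjusted p, led by ILV2 (-1.26) and BAT1 (-1.253), both of which were higher than in line 6, by 0.91 and 0.43. Of 9 lysine genes 5 were higher and 3 lower, at a median of 0.19, and of 12 genes of serine, glycine and one-carbon metabolism 5 were higher and 5 lower. In the arginine list 5 of 16 were higher and 7 lower, at a median of -0.03. ARG1 of that list, argininosuccinate synthetase, was 0.80 below WT in line 9 and 2.74 below it in line 6, and the fatty acid desaturase gene OLE1 0.75 and 2.62 below.

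The protein synthesis machinery, given in brief, was lower in line 9 by a median of 0.70 on the log2 scale over 56 small subunit protein genes and 0.74 over 81 large subunit genes, of which 6 and 16 fell at least 2-fold, and 54 and 78 stood higher than in line 6. RPP1, an RNase P subunit gene that the large subunit list also held, was set aside for these counts. Of all genes 4.94% fell at least 2-fold and 29.4% stood higher than in line 6. Heat shock protein genes did not move as 1 group against WT, with a median of -0.06. By adjusted p, 8 of 30 were higher and 14 lower, against 32.5% and 33.9% of all genes. Against line 6, 24 of the 30 were lower and 2 higher, beside 28.2% and 29.4% of all genes, with a median difference of -0.61. AHP1, a thioredoxin peroxidase, fell from 1533.9 ± 104 to 641 ± 19.6 CPM (log2 fold change -1.26) and was 0.04 above WT in line 6. Proteasome genes were higher in 27 of 37 cases and lower in 2, at a median of 0.16 with none at 2-fold.

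**Figure D5:**
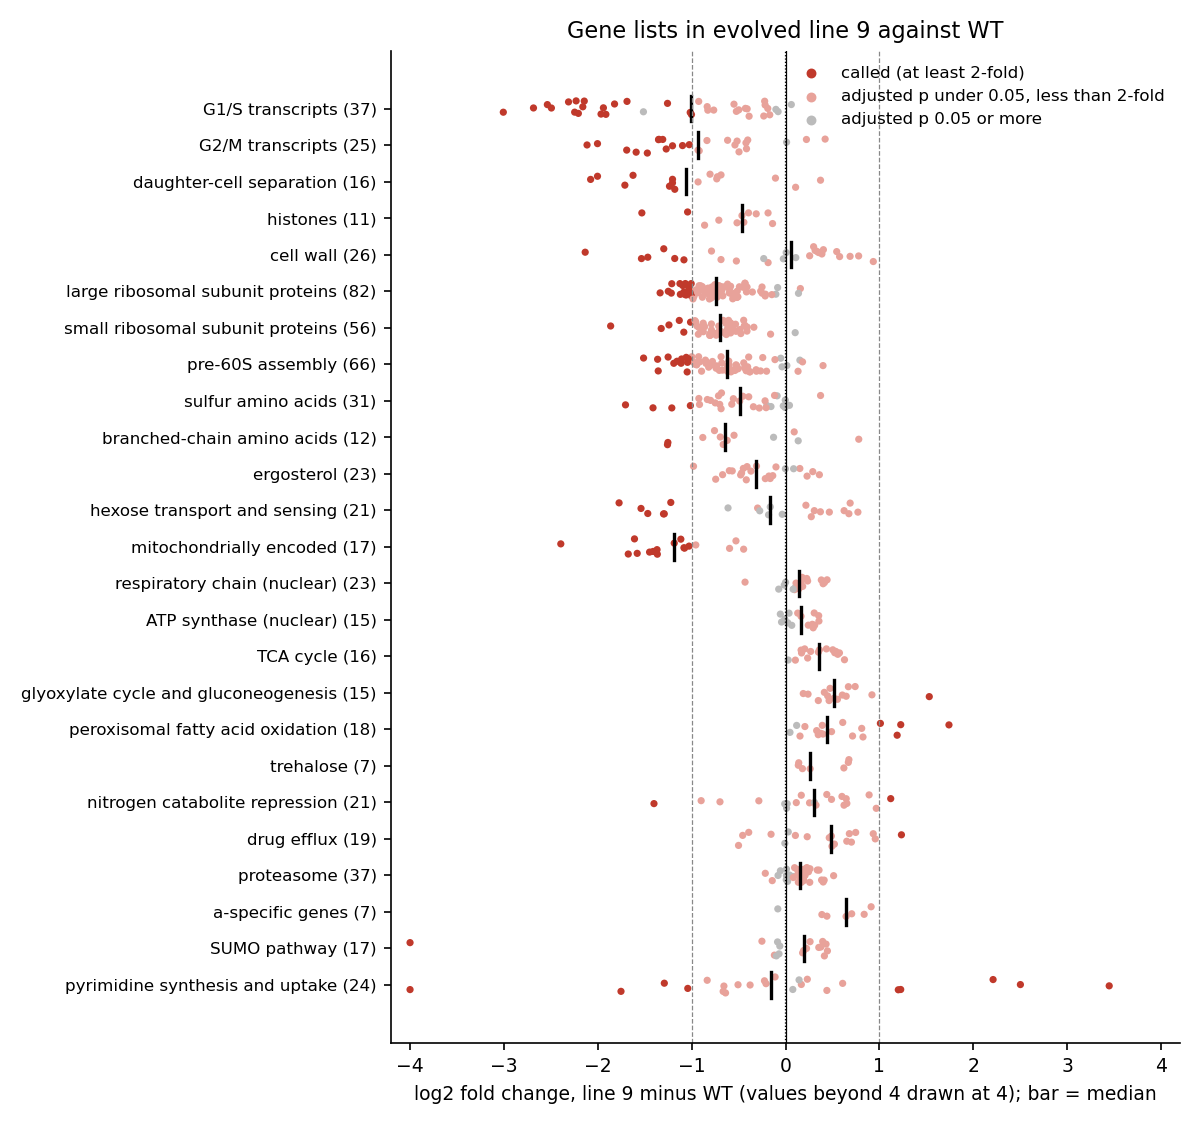
Log2 fold change of line 9 against WT for the tested members of 25 gene lists, 1 point per gene coloured by its call, with a bar at each median (the large subunit list is drawn with RPP1); values beyond 4 are drawn at 4. The G1/S, G2/M, daughter-cell separation and mitochondrially encoded lists have medians from -0.93 to -1.19, and the peroxisomal fatty acid list has a median of 0.44.

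In the SUMO pathway, ULP2 was the only one of 17 genes called at 2-fold. By adjusted p, 10 genes were higher and 3, ULP2 included, lower, against 32.5% and 33.9% of all genes, with a median of 0.19. SIZ1 rose by 0.45 (adjusted p = 1.97e-06), SLX5, a subunit of the SUMO-targeted ubiquitin ligase, by 0.43, and CDC48, the segregase that acts on modified proteins, by 0.18. UBC9 had 1410, 1351 and 1540 counts in WT and 1169, 1474 and 1432 in line 9 and fell by 0.25 (adjusted p = 0.00118). UBA2 did not pass the test (log2 fold change -0.07, SE 0.06, adjusted p = 0.288). That value is a transcript level and does not bear on the Uba2 protein mutations that the paper reports. The values of SMT3 (-0.12, adjusted p = 0.0472) and ULP1 (0.22, adjusted p = 0.0134) lay near the threshold, and both passed it no longer without WT replicate 2 (adjusted p = 0.0721 and 0.0661).

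Genes expressed only in a cells, such as those for a-factor and for the receptor of alpha-factor, were higher in line 9 than in WT and lower than in line 6. Of 7 a-specific genes, 6 were higher than in WT by adjusted p, none at 2-fold, with a median of 0.65, and all 7 were lower than in line 6, with a median difference of -1.42. Of all genes 32.5% were higher than in WT and 28.2% lower than in line 6. BAR1, the protease that degrades alpha-factor, rose by 0.65 in line 9 and stood 2.76 above WT in line 6 and at -0.85 in nascent cells. MFA1, encoding a-factor, had 8314, 9085 and 9468 counts in WT and 15292, 20871 and 21251 in line 9 (log2 fold change 0.91), and was at 1.83 in line 6 and -2.20 in nascent cells. The alpha-specific MF(ALPHA)1 had 160, 131 and 195 counts in WT and 4, 24 and 25 in line 9, a fall of 3.39 (SE 0.41) from a low level. The shared WT libraries mean that line 6 and nascent values against WT are not independent of those of line 9.

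Storage carbohydrate, transport and metal genes are given in brief. Of 15 glycogen genes 9 were higher and 1 lower than in WT, and 13 were lower than in line 6, where GSY1, glycogen synthase, stood at 1.91 against 0.82 in line 9. All 7 trehalose genes were higher than in WT and lower than in line 6, with medians of 0.26 and -0.43. Among all genes 32.5% were higher than in WT and 28.2% lower than in line 6. Of 19 drug efflux genes 13 were higher and 4 lower, against 32.5% and 33.9% of all genes, led by RSB1, a lipid translocation factor (1.24), and QDR2 (0.96). In lipid synthesis, 17 of 23 ergosterol genes were lower, at a median of -0.31, and ERG5 fell by 0.98. The copper metallothionein copies CUP1-1 and CUP1-2 fell by 1.12 and 1.05 and stood at -0.12 and 0.02 in line 6; they are near-identical and overlap other features, so their counts cannot be assigned to 1 copy. THI5 and THI12, near-identical genes of thiamine synthesis, were at -1.45 and -1.31 with the same limit. The hydrophilin genes GRE1 and SIP18, induced by drying and osmotic stress, fell by 1.48 and 1.23.

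Of the remaining largest changes, SNT309 (YPR101W, chromosome XVI, 730492 to 731019), a subunit of the complex that activates the spliceosome, had 1650, 1551 and 2049 counts in WT and 7173, 8953 and 7942 in line 9, with no overlap. It rose by 2.03 (SE 0.05, adjusted p = 1.37e-13), stood 1.97 above WT in line 6 and 0.36 above it in nascent cells, and did not differ between the lines (0.06, adjusted p = 0.28). YNL018C and its paralog YNL034W rose by 3.04 and 2.13 from low levels, with 21, 17 and 13 counts of YNL018C in WT and 138, 201 and 141 in line 9. PHO5, the secreted acid phosphatase, fell by 1.75 in line 9, 1.85 in line 6 and 3.25 in nascent cells. BNA1, of NAD synthesis, fell by 1.41 in line 9.

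A few features had libraries that differed many-fold within a group. IFH1, a coactivator of ribosomal protein genes, had 29, 26 and 27 counts in WT and 4861, 5287 and 30 in line 9, so that 1 line 9 library stood with WT (log2 fold change 6.83, SE 2.63, adjusted p = 0.0322). Over all groups, 4 of 12 libraries had above 1000 counts of IFH1 and none of the others more than 37. Its call was lost without any 1 WT library or without line 9 replicate 1 or 2 (adjusted p between 0.0557 and 0.0922). Of 54 tested features in which the libraries of WT or line 9 differed by more than 8-fold, 11 were called, among them YMR141C, with 12, 241 and 58 counts in WT and 2, 0 and 0 in line 9, YBL005W-A, with 1800, 1353 and 11 in WT and 9, 9 and 11 in line 9, and YGR151C. Without such features 108 genes were increased and 307 decreased.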

How the data were processed

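Libraries of total RNA, sequenced as 101-base paired ends, were trimmed by the authors with Trim Galore 0.5.0, mapped to sacCer3 with HISAT2 2.1.0 and quantified with StringTie 1.3.3b. The deposited values are raw counts per gene, and the strand setting, and how coverage became counts, are not given in the sources used here. Of 7114 features 6 had no gene name. These 6 held 0.0826% to 0.173% of counts and stayed out. Counts were filtered with filterByExpr over the 4 groups, scaled by TMM and fitted in edgeR 4.0.16 (R 4.3.3) with all 12 libraries and group means only; contrasts were tested by quasi-likelihood with Benjamini-Hochberg adjustment over all 6372 genes, at adjusted p below 0.05 and, for 2-fold calls, a log2 fold change of at least 1. CPM used TMM-scaled totals, and log2 values come from the fit.

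On counts simulated for line 9 against WT over 6337 genes, all 150 genes changed by 3-fold or more were called, and 0 of 6137 unchanged genes. By adjusted p alone 9 unchanged genes passed. Of 50 genes changed by 1.5-fold, 47 passed adjusted p and 0 were called. Every gene had the same dispersion, 0.01, and changed genes had a mean of at least 50 counts. Changes in low-count genes and uneven libraries were therefore not covered. The genes, lists and comparison were chosen with earlier results of these data known; the G1/S, G2/M and M/G1 lists, their motifs and the 500-base window were written after the values had been seen. Named genes were the marker genes, the SUMO pathway, HXK1, CIT2 and GDB1, the 12 largest rises and 12 largest falls among called genes with a mean of 50 counts in the higher group, no overlap and a DESeq2 call, up to 4 members of each list, and further members of pathways described. Replicate numbers did not pair the libraries, with correlations of deviations of -0.026, -0.022 and -0.057. Positions were read from the RefSeq R64 annotation for 6126 of 7108 names that matched it. The alternatives were DESeq2 1.42.0, other scalings and filters, other fold thresholds, a block for replicate and each library left out.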

Additional observations from a re-analysis of the deposited data

Results flagged for a closer look

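In these genes the change against WT differed between line 9 and line 6, by the direct edgeR quasi-likelihood contrast, in which WT cancels. CTS1, the septum chitinase, was lower in line 9 than in line 6 by a log2 difference of -2.124 (SE 0.04, adjusted p = 2.18e-14), falling in line 9 against WT and standing 0.50 above WT in line 6. HXK1, hexokinase, differed by -1.602 (adjusted p = 2.25e-13), with -0.26 against WT in line 9 and 1.34 in line 6. GDB1, the glycogen debranching enzyme, differed by -1.044 (adjusted p = 4.76e-12), with -0.02 and 1.03. The paper reports raised hexokinase and debranching enzyme transcripts in the evolved line with the shared Uba2 mutation alone. In these libraries HXK1 and GDB1 rose against WT in line 6 and not in line 9. MNC1 differed by 1.488 (adjusted p = 4.09e-09), rising by 1.14 in line 9 and standing at -0.35 in line 6. LOH1 differed by -1.185 (adjusted p = 0.0103), with -2.57 and -1.38, from few counts. The remaining 3 have libraries that differ many-fold within a group: YBL005W-A differed by -6.345 (adjusted p = 0.0121), YMR141C by -4.997 (adjusted p = 0.033) and YGR151C by 2.416 (adjusted p = 0.0421).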

How the results depend on the processing

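The main counts were 111 genes increased and 315 decreased. DESeq2 gave 113 and 300, its size factors in edgeR 115 and 298, library totals 101 and 341, no filter 119 and 349, at least 1 CPM in 3 libraries 97 and 281, and WT and line 9 libraries alone 109 and 294. A replicate block gave 111 and 316, and 421 of the 426 called genes were shared with the fit without it; the numbers mark no shared culture in the labels. Leaving out 1 library at a time gave 104 to 120 increased and 304 to 323 decreased genes. Lower fold thresholds raised the counts to 381 and 836 at 1.5-fold, and to 2073 and 2163 with none. Leaving out features with uneven libraries, chosen after seeing the data, gave 108 and 307. Of 513 named genes, 36 crossed the threshold in at least 1 alternative and none reversed. The median of 73 small nucleolar RNAs, 0.10, ranged from -0.058 (without line 9 replicate 2) to 0.147 with 1 library left out. The cause of these changes was not tested. Library totals moved the median of all genes to -0.04. Genes with few counts, such as CLB6, have wide errors, and each evolved group is 1 line.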
